A study of Saccharomyces cerevisiae with 18 samples.

Results

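The transcriptome of *MAT***a** cells of budding yeast without *α*-pheromone, and with the 2 doses below the lowest pheromone dose used in both experiments, was described from 4 of the 18 RNA sequencing libraries of a dose series. These are the mock-treated (0 nM) libraries of experiment 1 and experiment 2 and the 0.05 nM and 0.25 nM libraries of experiment 2, and they were chosen by dose alone. All 4 come from strain yAA95, harvested 60 min after cells had been moved at mid-exponential phase into glucose medium with or without synthetic pheromone. The strain is *MAT***a**, lacks the pheromone protease gene *BAR1*, both *α*-pheromone genes (*MF(ALPHA)1*, *MF(ALPHA)2*) and *ARG4*, is reported by the study to lack functional Kss1, and carries a *P*FUS1-Ubi(I)-sfGFP-*T*FUS1 reporter with *URA3* at *ura3*. The study lists its strains as derivatives of SEY6210a, which carries mutant alleles of *LEU2*, *URA3*, *HIS3*, *TRP1*, *LYS2* and *SUC2*. The same alleles are present at every dose, and a *P*FUS1 reporter with a *FUS1* terminator is part of the background in which *FUS1* itself was measured.

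The study used 11 doses up to 500 nM, in 2 independent experiments of 9 libraries each, with 7 doses in both. Ribosomal RNA was depleted and directional reads of 50 bases were taken from total RNA primed with random hexamers, so RNAs without a poly(A) tail were also read. The deposited values are RPKM, the reads on a gene divided by its length and by the mapped reads of its library, which allows levels of different genes to be compared per length. The 0.05 nM and 0.25 nM doses have 1 library each, and an error given as SD is the spread over the 4 libraries of 3 doses.

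Budding yeast cells of mating type **a** sense the pheromone of *α* cells through the receptor Ste2, a G protein and a MAP kinase cascade that ends at the transcription factor Ste12. Ste12 binds pheromone response elements in the promoters of mating genes, and several of these genes are also transcribed in cells that have met no partner, since the cell has to carry receptor, **a**-factor and agglutinin before a partner comes near. Genes of the *α* mating type, of meiosis and of growth without glucose are known to be switched off in such cells.

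The sequences that the results turn on are shown here, read from the R64 genome. The first set is the promoter stretch from 250 to 101 bases before the start codon of 3 mating genes, 5′ to 3′ on the gene's strand, at chrIII:71553-71702 (plus strand) for *FUS1*, chrXIII:181176-181325 (minus strand) for *PRM6* and chrVI:82330-82479 (plus strand) for *STE2*. Capitals mark TGAAACA, the core of the pheromone response element, searched on both strands.
FUS1: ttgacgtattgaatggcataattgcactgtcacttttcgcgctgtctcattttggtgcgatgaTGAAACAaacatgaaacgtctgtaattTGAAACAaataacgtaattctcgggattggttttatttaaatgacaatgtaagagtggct
PRM6: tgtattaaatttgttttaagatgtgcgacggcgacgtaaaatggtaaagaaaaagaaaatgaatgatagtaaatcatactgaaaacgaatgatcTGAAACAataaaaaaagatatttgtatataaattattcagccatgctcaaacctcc
STE2: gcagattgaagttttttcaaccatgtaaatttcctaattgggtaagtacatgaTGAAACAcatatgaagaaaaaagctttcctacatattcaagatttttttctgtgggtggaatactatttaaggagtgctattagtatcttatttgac
The *FUS1* window held 2 copies, starting 187 and 160 bases before the start codon, and the *PRM6* and *STE2* windows held 1 copy each. Among 5987 windows of nuclear protein-coding genes, 227 (3.79%) held the motif, against 5 of the 7 **a**-specific genes listed, 18 of 36 mating effectors and 5 of 26 core pathway genes. These lists share members, among them *STE2*.

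The second pair is the coding sequences of the **a**-factor genes *MFA1* (chrIV:1385176-1385286, plus strand) and *MFA2* (chrXIV:352414-352530, plus strand), which were among the most abundant mating transcripts. Capitals mark the 12 codons of the mature **a**-factor peptide, in which 7 of 36 bases differ between the genes and 1 codon encodes a different amino acid.
MFA1: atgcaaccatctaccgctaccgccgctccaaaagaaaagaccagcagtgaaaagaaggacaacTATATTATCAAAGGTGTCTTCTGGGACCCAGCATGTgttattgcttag
MFA2: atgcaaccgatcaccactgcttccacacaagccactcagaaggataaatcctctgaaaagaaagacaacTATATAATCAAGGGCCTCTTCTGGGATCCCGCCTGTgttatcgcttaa
The third set is 3 C/D box snoRNAs, small nucleolar RNAs that guide chemical modification of ribosomal RNA. They are snR4 (chrV:424698-424883, plus strand), snR190 (chrX:139761-139950, minus strand) and snR47 (chrIV:541602-541700, minus strand), which were among the steepest in the order of doses within experiment 2. Capitals mark GATGA, the core of the C box, within the first 20 bases and CTGA, the D box, within the last 20 bases.
snR4: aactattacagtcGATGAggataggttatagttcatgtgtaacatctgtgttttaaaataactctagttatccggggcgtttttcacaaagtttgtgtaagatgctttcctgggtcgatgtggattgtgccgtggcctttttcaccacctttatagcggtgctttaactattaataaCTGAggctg
snR190: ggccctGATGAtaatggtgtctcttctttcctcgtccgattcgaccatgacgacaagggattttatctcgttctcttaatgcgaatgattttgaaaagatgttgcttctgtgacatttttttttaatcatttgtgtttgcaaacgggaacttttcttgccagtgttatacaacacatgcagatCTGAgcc
snR47: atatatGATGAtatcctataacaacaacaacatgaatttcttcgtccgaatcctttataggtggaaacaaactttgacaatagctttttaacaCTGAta
Both boxes were found in these positions in 38 of 45 annotated C/D box snoRNAs.

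The 4 libraries held between 9650000 and 11810000 mapped reads, recovered from the steps of low RPKM values, so that 3 reads on 1000 bases correspond to 0.254 to 0.311 RPKM. This floor covers counting error only. The 0.25 nM library stood apart from all others in 1 respect. Small RNAs of 150 to under 300 bases took 1.71% of its mapped reads, against 0.655% to 1.34% in the other 17 libraries and 1.08% in the 0 nM library of the same experiment. The values of strain markers bear on the strain and not on the dose: *HIS3* and *TRP1* are listed at 0 in all 4 libraries and *BAR1* did not exceed 0.288 RPKM, while *URA3*, which the reporter brings, had 369 ± 20.0 RPKM (SD, n = 4).

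The basal transcriptome was headed by stable RNAs of protein secretion, ribosome assembly and splicing together with messengers of glycolytic enzymes and ribosomal proteins. Of 6007 protein-coding genes, the median of the mean level was 32.3 RPKM, with quartiles of 15.3 and 70.4 RPKM and a 95th percentile of 351 RPKM. The 103 protein-coding genes at or above 1000 RPKM took 21.2% to 23.8% of the mapped reads, whereas 459 protein-coding genes had a mean under 1 RPKM. The highest level belonged to *SCR1*, the RNA of the signal recognition particle, at 48045 RPKM in the 0 nM library of experiment 1, 70528 RPKM in that of experiment 2, 68409 RPKM at 0.05 nM and 65877 RPKM at 0.25 nM. The 3 libraries of experiment 2 lay close together and that of experiment 1 lay below them.

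Of the 25 highest genes, 8 encode glycolytic or fermentation enzymes, 8 are snoRNAs, 5 encode ribosomal proteins, 2 are spliceosomal RNAs and the other two are *SCR1* and *CCW12*. The glyceraldehyde-3-phosphate dehydrogenase gene *TDH3* was the highest protein-coding gene, with 13511 and 16461 RPKM at 0 nM in experiments 1 and 2, 16183 RPKM at 0.05 nM and 17232 RPKM at 0.25 nM. After it came the pyruvate decarboxylase gene *PDC1* with 11921 ± 611 RPKM and the enolase gene *ENO2* with 8348 ± 515 RPKM (SD, n = 4 each). *CCW12*, which encodes a mannoprotein of the cell wall, had 7139 ± 711 RPKM. The other enzymes were aldolase (*FBA1*), phosphoglycerate mutase (*GPM1*), alcohol dehydrogenase (*ADH1*), phosphoglycerate kinase (*PGK1*) and pyruvate kinase (*CDC19*), between 4951 and 5878 RPKM on average, and neighbours in this order of levels differed by less than the larger of their SDs. Ribosomal protein genes were led by *RPS31*, whose product is made as a fusion with ubiquitin, at 5988 ± 562 RPKM, followed by *RPS12*, *RPL3*, *RPL10* and *RPS2*.

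The snoRNAs and spliceosomal RNAs of this group act in the nucleus. Both U3 genes of ribosomal RNA processing were among them, *snR17a* with 17799 ± 1828 RPKM and *snR17b* with 5104 ± 884 RPKM. Of their 50-base windows, 91.8% (*snR17a*) and 91.3% (*snR17b*) are unique in the R64 genome, and reads from the remaining windows may be split between them. The U2 RNA *LSR1* had 10836 ± 790 RPKM and the U1 RNA *snR19* 7015 ± 1096 RPKM (SD, n = 4 each). snR190 was the most variable of the 25, at 4927, 5704, 8110 and 14452 RPKM in the 0 nM libraries of experiments 1 and 2, the 0.05 nM and the 0.25 nM library. H/ACA snoRNAs, which guide pseudouridine formation or ribosomal RNA processing, were represented by snR37, snR30, snR10, snR83 and snR86. As shares of mapped reads, 137 genes of cytosolic ribosomal proteins took 10.9% to 12.8%, 16 genes of glycolysis and fermentation 7.98% to 9.56%, 76 snoRNAs 3.33% to 4.56% and *SCR1* alone 2.503% to 3.67%.

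**Figure D1:**
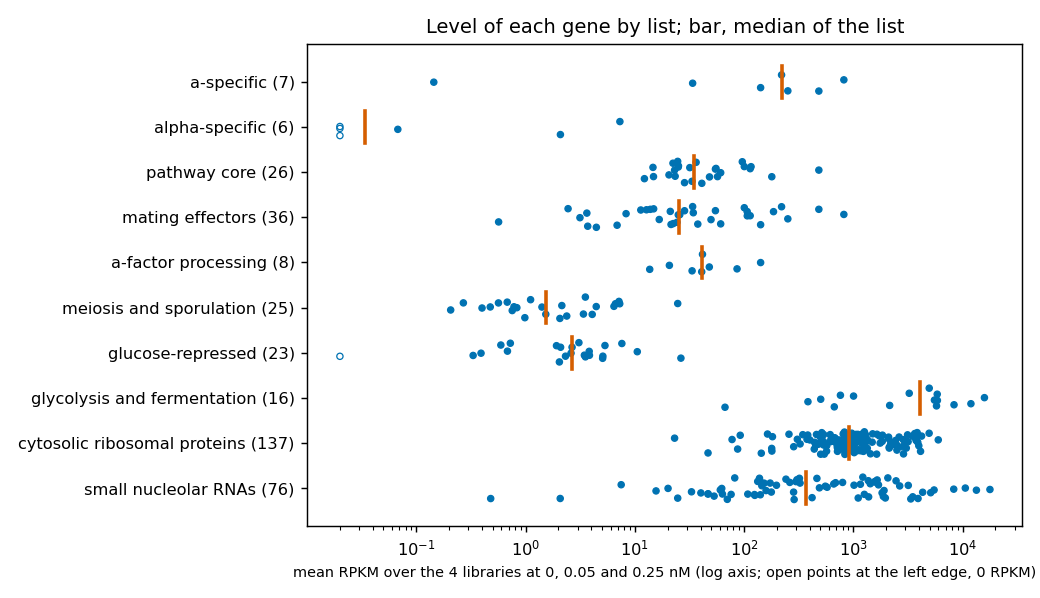
Mean RPKM over the 4 libraries at 0, 0.05 and 0.25 nM on a log axis, with 1 point per gene, the number of genes of each list in brackets, the median of each list as a bar and genes at 0 as open points at the left edge. Glycolytic genes, ribosomal protein genes and snoRNAs lie furthest right, **a**-specific genes have a median of 220.4 RPKM, and meiotic genes have a median of 1.53 RPKM.

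Unstimulated cells carried the transcripts of 6 of 7 listed **a**-specific genes at 10 RPKM or more, all but the deleted *BAR1*, and of 0 of 6 *α*-specific genes at that level. Their mating genes together took a small share of the reads, 0.279% to 0.325% for 36 effector genes and 0.130% to 0.147% for 7 **a**-specific genes. *MFA2* had the highest level, with 824 and 898 RPKM at 0 nM in experiments 1 and 2, 783 RPKM at 0.05 nM and 772 RPKM at 0.25 nM. The receptor gene *STE2* followed with 473, 486, 452 and 523 RPKM in the same order of libraries. The agglutinin subunit gene *AGA2* had 246, 212, 237 and 311 RPKM, and *MFA1* had 253, 203, 166 and 259 RPKM. Thus *MFA2* had its lowest value at 0.25 nM, while *STE2*, *AGA2* and *MFA1* had their highest there.

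The exporter of **a**-factor, *STE6*, had 142 ± 5.49 RPKM (SD, n = 4). *ASG7*, which acts on G protein signalling during mating, had 29.8 and 30.6 RPKM at 0 nM, 33.1 RPKM at 0.05 nM and 41.9 RPKM at 0.25 nM. Of the *α*-specific genes, the **a**-factor receptor gene *STE3* had 1.54 to 2.46 RPKM and the *α*-agglutinin gene *SAG1* 6.42 to 8.01 RPKM, both above the floor of 3 reads. In bulk RNA, a high level in few cells and a low level in all cells cannot be told apart. *HMLALPHA1* and *HMLALPHA2* are listed at 0, but no 50-base window of them is unique in the R64 genome, whose *MAT* locus carries the *α* genes, so these zeros check nothing. Reads of **a**1 from *MAT* and from the silent *HMR* locus cannot be told apart for the same reason, and *HMRA1* was listed at 43.3, 42.0, 41.2 and 36.2 RPKM.

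Between the receptor and the nucleus, the 26 core pathway genes lay between 12.2 RPKM (*DIG2*, an inhibitor of Ste12) and 484 RPKM (*STE2*), with a median of 34.9 RPKM. The G protein genes had unequal levels, 116 ± 5.83 RPKM for the α subunit gene *GPA1*, 96.3 ± 2.15 RPKM for the β subunit gene *STE4* and 48.3 ± 4.48 RPKM for the γ subunit gene *STE18* (SD, n = 4 each). *SST2*, whose product switches Gpa1 off, stood at the level of *GPA1*, with 114 ± 10.7 RPKM. The kinases of the cascade had 24.7 ± 7.30 RPKM for *STE20*, 14.8 ± 0.999 RPKM for *STE11*, 23.1 ± 0.743 RPKM for *STE7* and 61.1 ± 4.74 RPKM for the MAP kinase gene *FUS3*. The scaffold gene *STE5*, with 22.3 ± 2.67 RPKM, did not differ from *STE7* beyond its spread. *KSS1* was transcribed at 25.1 ± 2.80 RPKM although its product is reported as non-functional in this strain. In the nucleus, *STE12* had 55.4 ± 5.05 RPKM, *TEC1*, its partner at filamentation genes, 54.7 ± 9.01 RPKM, and *MCM1*, its partner at mating genes, 57.1 ± 9.73 RPKM, which did not differ beyond their spread. *FAR1*, whose product arrests the cell cycle and orients growth, had 101 ± 8.67 RPKM.

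Export and processing of **a**-factor had 8 listed genes between 13.7 RPKM (*RCE1*, a protease of the CAAX motif) and 142 RPKM (*STE6*). The farnesyltransferase subunit genes *RAM1* and *RAM2* had 20.7 ± 0.832 and 41.0 ± 3.22 RPKM (SD, n = 4 each). Of genes repressed in diploids, *HO*, the mating type endonuclease, had 92.9 ± 1.29 RPKM, the meiosis repressor gene *RME1* 114 ± 6.11 RPKM and *AMN1*, of mitotic exit, 149.5 ± 6.74 RPKM.

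The list called effector genes here holds genes of agglutination, cell fusion and nuclear fusion. It also holds genes of the receptor, signalling and **a**-factor, among them *STE2*, *SST2*, *FUS3*, *FAR1*, *MSG5*, *TEC1*, *STE6* and *MFA1*. Effector genes ranged from 0.567 RPKM (*PRM9*) to 819 RPKM (*MFA2*, which is in this list too). The nuclear fusion regulator gene *KAR4* had 98.6 and 115 RPKM at 0 nM in experiments 1 and 2, 93.2 RPKM at 0.05 nM and 122 RPKM at 0.25 nM. *FUS1*, of cell fusion, had 23.0, 20.8, 18.8 and 27.4 RPKM in that order. *PRM1*, of membrane fusion, had 18.1, 20.6, 17.9 and 27.8 RPKM. In each of the 3 genes the 0.25 nM library was the highest and the 0.05 nM library the lowest.

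Low but measurable levels were found for *FUS2* (12.2, 10.8, 11.5 and 16.6 RPKM, in the same order), which acts at the fusion site, and for *FIG1* (8.56, 7.94, 4.49 and 12.3 RPKM), of calcium entry. The agglutinin anchor gene *AGA1* differed mainly between experiments, at 20.1 RPKM at 0 nM in experiment 1 and 6.50, 7.08 and 11.7 RPKM at 0, 0.05 and 0.25 nM in experiment 2. *FIG2*, of the cell wall of mating cells, had its highest value at 0 nM in experiment 1 as well, with 6.16 RPKM against 1.75, 3.05 and 3.60 RPKM. At the low end, *PRM3*, of nuclear envelope fusion, had 2.11 to 5.64 RPKM and *PRM9* 0.567 ± 0.0968 RPKM, the only effector under the level tested.

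**Figure D2:**
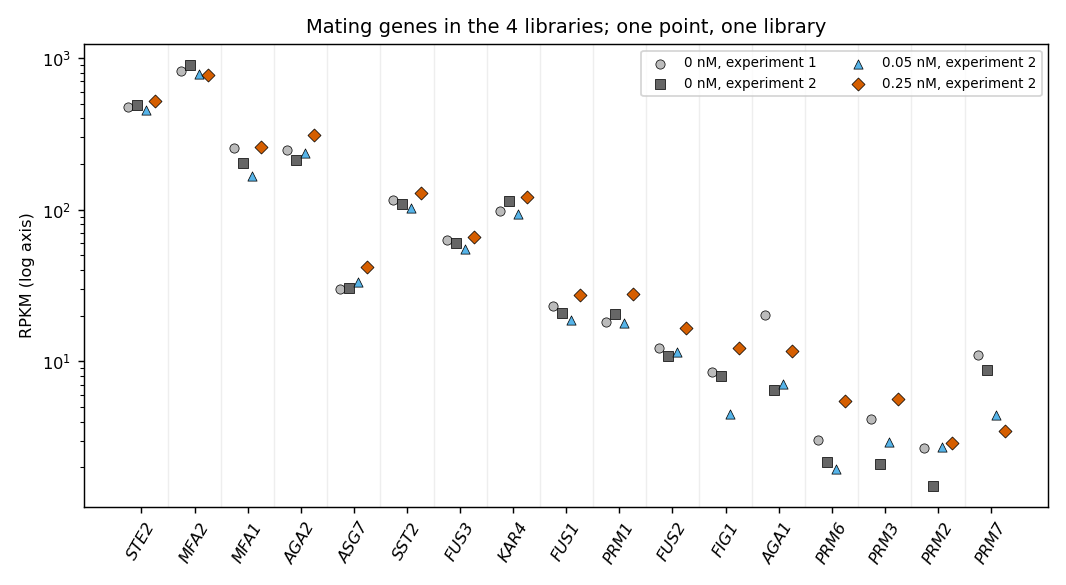
RPKM of 17 mating genes on a log axis, 1 point per library, with 0 nM of experiment 1 as circles, 0 nM of experiment 2 as squares, 0.05 nM as triangles and 0.25 nM as diamonds. The diamond is the highest point for every gene but *MFA2*, *AGA1* and *PRM7*, and it is the lowest for *MFA2* and *PRM7*. The genes plotted are a selection from the effector list and do not stand for it. In the whole list the 0.25 nM library was the highest for 17 of 35 genes tested.

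Whether the doses of 0.05 and 0.25 nM changed any transcript was asked with limma on log2(RPKM + 1) over all 18 libraries, with the experiment as a block. Among 5995 genes with a mean of at least 1 RPKM, those called had a Benjamini-Hochberg adjusted p below 0.05 together with a difference of 2-fold or more. The single libraries were assumed to vary like those of the doses used in both experiments. At 0.05 nM, 0 genes were called in either direction (0% of those tested), 101 (1.68%) were higher and 138 (2.3%) lower at an unadjusted p under 0.05, and limma-voom on recovered reads called 0 genes with 112 higher and 123 lower. When the 0 nM library of experiment 1 was left out, 8 genes were called higher at 0.05 nM, among them *HSP60*, a mitochondrial chaperone, *GAR1*, of H/ACA snoRNA particles, and the elongation factor gene *SPT5*. The smallest p at 0.05 nM belonged to *PHM6*, a gene of phosphate starvation, with 4.69 RPKM at 0.05 nM, against 10.2 and 12.4 RPKM at 0 nM (log2 fold change −1.19, SE 0.20, adjusted p = 0.976).

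At 0.25 nM, 1 gene was called higher (0.0167% of those tested) and 0 lower, while 221 genes (3.69%) were higher and 349 (5.82%) lower at an unadjusted p under 0.05. The gene called was snR4, whose sequence is given above. It is annotated as a guide of ribosomal RNA acetylation by Kre33. It had 3634 RPKM at 0.25 nM, against 1019 and 1189 RPKM at 0 nM and 1798 RPKM at 0.05 nM. The 0.25 nM library was the highest by far, and both 1 nM libraries, at 2342 and 2771 RPKM, were also above all values at 0 and 0.05 nM. The log2 fold change at 0.25 nM was 1.59 (SE 0.14, limma, adjusted p = 0.0052). Without the block for the experiment the change was 1.72 with an adjusted p of 0.191, so the call was lost.

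Other tools and samples changed how many were called at 0.25 nM. limma-voom called 8 genes higher, all of them small nuclear or nucleolar RNAs (snR4, snR11, snR14, snR34, snR36, snR49, snR189 and snR190), and 0 lower. Without the 0 nM library of experiment 1, 10 genes were called higher, among them 5 snoRNAs, and *PHM6* and snR75 lower. Without the 0 nM library of experiment 2, 4 were called higher, among them snR4, snR11 and snR189, and 0 lower. At 1 nM, the lowest dose with a library in each experiment, the same fit called 16 genes higher (0.267%) and 2 lower (0.0334%) against the same 0 nM libraries. Of those 16, 7 were mating effectors, and with the 0 nM library of experiment 1 left out 34 were called higher, against 5 with that of experiment 2 left out. The 2 lower genes were *PHM6* and *YGR035C*, and leaving out these libraries gave 17 and 0 lower genes. On reads simulated for 5622 genes, the comparison of 0.25 with 0 nM recovered 88 of 100 genes changed 2.5-fold and 100 of 100 changed 4-fold, and called 5 of 5422 unchanged genes. The simulation set the dispersion at 0.01 for every gene, changed only genes of at least 10 RPKM and gave other doses no effect. Its shares therefore need not hold for these data. In the real fit, snR49 and snR189 had log2 fold changes of 1.80 and 1.90 at 0.25 nM and were not called.

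No mating gene passed the test at 0.05 or 0.25 nM. Values at 0.25 nM leaned upwards in effectors and **a**-specific genes, but this was not particular to mating genes. The 0.25 nM library was also the highest of the 4 for 12 of 15 stress and reserve carbohydrate genes and 11 of 16 glycolytic genes. It was the highest for 0 of 10 histone genes. Of 35 effector genes tested, 0 were called at either dose, and the lowest adjusted p (limma, Benjamini-Hochberg) was 0.383. At 0.25 nM, 3 were higher (*AGA2*, *PRM6*, *TEC1*) and 1 lower (*PRM7*) at an unadjusted p under 0.05. Among all genes tested, 3.69% were higher and 5.82% lower at that level. With 35 genes, the counts of 3 and 1 are not far from those shares. limma-voom called none of the effectors at these doses. The 0.25 nM library was the highest of the 4 for 17 of 35 effectors, compared with 16.8% of all genes tested, and for 5 of 6 **a**-specific genes and 8 of 26 core genes. It was the lowest for 4 effectors, compared with 26.8% of all genes. The lists overlap, so these counts are not separate observations. All 6 **a**-specific genes tested are also effectors, and *STE2* is a core gene as well. When the 0 nM library of experiment 1 was left out, 22 of 35 effectors (62.9%) were highest at 0.25 nM, beside 32.9% of all genes. The 0.05 nM library was the highest for 0 of 35 effectors, with 10.5% of all genes as background, and the lowest for 18, with 24.5% of all genes as background.

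In experiment 2, the median log2 ratio of 0.25 over 0 nM was 0.14 for effectors, 0.23 for **a**-specific genes and 0.00 for core genes, beside −0.03 for all genes. The corresponding medians of 0.05 over 0 nM were −0.12, −0.08 and −0.13, beside −0.04 for all genes. Both sets of ratios share the 0 nM library. The median of 1 over 0 nM in experiment 1, which shares no library with them, was 0.61 for the effectors, beside 0.03 for all genes.

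The largest upward value of an effector was that of *PRM6*, a pheromone-regulated membrane protein gene, at 5.45 RPKM at 0.25 nM, against 3.04 and 2.16 RPKM at 0 nM. Its value was 1.95 RPKM at 0.05 nM, and 16.1 and 15.2 RPKM at 1 nM. The fitted log2 difference at 0.25 nM was 1.01 (SE 0.33, limma, adjusted p = 0.416), which did not pass the test. *AGA2* differed by 0.43 on the log2 scale (SE 0.16, adjusted p = 0.443). *PRM7* went the other way, with 3.48 RPKM at 0.25 nM and 4.40 RPKM at 0.05 nM, against 10.9 and 8.73 RPKM at 0 nM, and its values at 1 nM were 5.15 and 3.27 RPKM. Its log2 difference at 0.25 nM was −0.91 (SE 0.27, adjusted p = 0.383).

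Effectors with and without the response element in the promoter window were counted separately. Of 18 effectors tested whose window held TGAAACA, the 0.25 nM library was the highest of the 4 for 13, compared with 4 of 17 whose window did not hold it. Among all genes tested the share was 16.8%. Within experiment 2 alone, the counts were 15 of 18 and 7 of 17, beside 32.9% of all genes tested. The genes with the motif include *FUS1*, *PRM6*, *STE2*, *AGA2*, *PRM1* and *KAR4*, and those without it include *FIG1*, *PRM7* and *MFA1*. A motif outside this window was not searched for, and no test was run on these counts. All of the counts rest on the same 0.25 nM library, and the list was chosen with earlier results of these data known. Whether the response element accounts for the difference was not tested.

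In experiment 2, genes whose values followed the order of doses were found in both directions. Of 5978 genes without ties, 1090 were in the rising order 0, 0.05 and 0.25 nM (18.2% of all tested) and 1532 in the falling order (25.6%). The other orders held 1189 genes (0.05 < 0.25 < 0), 882 (0.05 < 0 < 0.25), 670 (0 < 0.25 < 0.05) and 615 (0.25 < 0 < 0.05). Here "rising" and "falling" name the order of 3 single libraries, not a test. After each library was centred on its median, 1334 genes were rising and 1380 falling, and after quantile normalization 1377 were rising and 1288 falling, so that the larger of the 2 counts changed sides with the scaling.

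When both steps had to exceed 2 counting standard errors, 300 genes were left in any order, of which 89 were rising and 103 falling. The other 4 orders held 39, 34, 30 and 5 genes. Centring gave 111 rising and 78 falling genes, and quantile normalization 132 and 68. A span of at least 1.5-fold gave 95 rising and 146 falling genes of 547, and a span of at least 2-fold 32 and 45 of 201. The 89 rising genes were 74 protein-coding genes, 14 small nuclear or nucleolar RNAs and *NME1*, the RNA of RNase MRP. Among the 74, *YGL088W* had 16169, 14674 and 15032 reads at 0, 0.05 and 0.25 nM, nearly those of the snoRNA snR10 (16176, 14684 and 15023). snR10 and both annotated forms of the U5 RNA, which share reads, are among the 14. The 103 falling genes were 94 protein-coding genes, of which 47 encode ribosomal proteins, 8 small nuclear or nucleolar RNAs and *SCR1*. Only 1 ribosomal protein gene was among the rising genes.

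**Figure D3:**
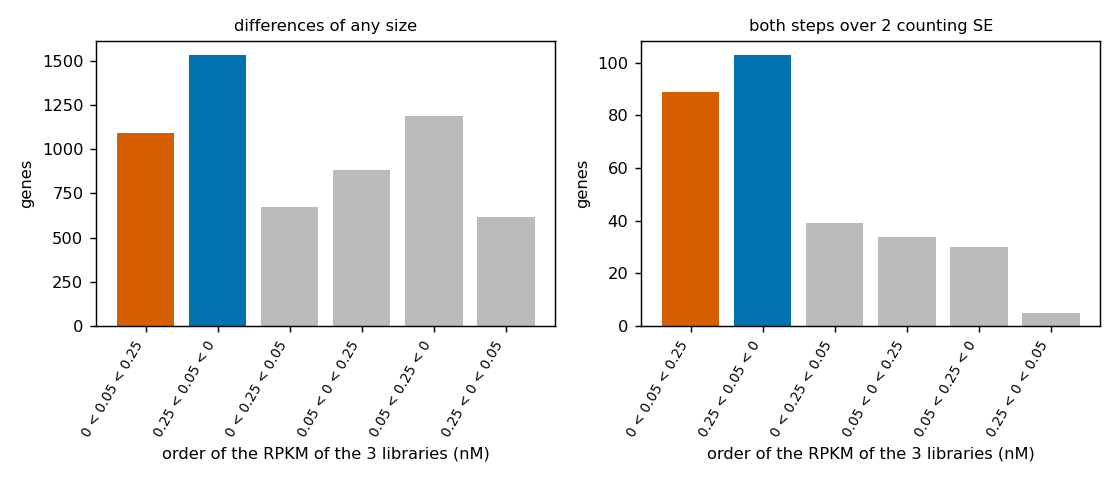
Number of genes in each of the 6 orders of the RPKM values of the 0, 0.05 and 0.25 nM libraries of experiment 2, for differences of any size (left) and for genes whose steps both exceed 2 counting standard errors (right). The rising order holds 1090 and 89 genes and the falling order 1532 and 103 genes, with the other 4 orders in grey.

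The 0 nM library of experiment 1 set a limit to this order. For 49 of the 89 rising genes its value lay above the 0.25 nM value of experiment 2, for 20 it lay below the 0 nM value and for 20 it lay between. For 38 of the 103 falling genes it lay below the 0.25 nM value, for 2 above the 0 nM value and for 63 between. The 0 nM libraries of the experiments thus often differed more than the 3 doses within experiment 2. Over 4911 protein-coding genes with a mean of at least 10 RPKM, the SD of the log2 ratio was 0.20 for 0.05 over 0 nM, 0.22 for 0.25 over 0 nM and 0.15 for 0.25 over 0.05 nM, but 0.30 for 0 nM of experiment 2 over experiment 1. Between those 0 nM libraries, 2 genes were at least 2-fold higher and 64 at least 2-fold lower in experiment 2.

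In libraries that share no culture with the order, the 1 nM library of experiment 1 was compared with the 0 nM library of experiment 1. Of the 89 rising genes, 83 (93.3%) were higher at 1 nM, beside 56.3% of all genes tested. Of the 103 falling genes, 87 (84.5%) were lower, beside 43.6% of all genes. With protein-coding genes alone, *YGL088W* included, the counts were 69 of 74 and 80 of 94. Without ribosomal protein genes, 38 of 47 falling protein-coding genes were lower. The order that dips at 0.05 nM and ends highest at 0.25 nM gave 33 of 34 genes higher, and the order highest at 0.05 nM with 0.25 nM between gave 29 of 39. A high share was therefore found also for genes that did not follow the doses step by step. The shares were 91.9% of rising and 89.7% of falling genes after centring and 89.4% and 88.2% after quantile normalization, both chosen after seeing the data.

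The 10 steepest rising genes were snR4, 6 other snoRNAs, *CHS1* and the 2 annotated forms of the U5 RNA, *snR7-L* and *snR7-S*, which overlap and share reads. The H/ACA snoRNA snR46 had 789.7, 1291 and 2220 RPKM at 0, 0.05 and 0.25 nM in experiment 2 and 586 RPKM at 0 nM in experiment 1. snR190 and the H/ACA snoRNAs snR31, snR34, snR161 and snR35 had log2 ratios of 0.25 over 0 nM between 0.89 and 1.34. *CHS1*, a chitin synthase of cell separation and mating, had 33.8, 61.0 and 65.5 RPKM in that order, but 77.2 RPKM at 0 nM in experiment 1. Mating genes with both steps rising were *AGA2* and the cell wall gene *SCW10*, with the osmosensor gene *MSB2* and the G1 cyclin gene *CLN2* beside them. *SCW10* had 148, 165 and 188 RPKM in experiment 2 and 242 RPKM at 0 nM in experiment 1, and *CLN2* 42.9, 54.0 and 61.8 RPKM against 80.9 RPKM. For these 3 genes other than *AGA2*, the 0 nM library of experiment 1 was thus above all 3 libraries of experiment 2.

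Falling genes were led by the C/D box snoRNA snR47, with 1653, 704 and 508 RPKM at 0, 0.05 and 0.25 nM in experiment 2 and 325 RPKM at 0 nM in experiment 1 (log2 ratio of 0.25 over 0 nM −1.70). The 0 nM library of experiment 2 was the one that stood out. *YKR075C* had 74.8, 30.7 and 24.9 RPKM (log2 ratio −1.55) and *ECM13* 49.2, 26.9 and 19.8 RPKM (log2 ratio −1.27), and their values at 0 nM in experiment 1, 40.4 and 27.9 RPKM, lay between. *RPL41A*, of the large ribosomal subunit, had 738, 489 and 363 RPKM against 419.9 RPKM. The other 6 of the 10 steepest were *YKL068W-A*, the signal peptidase subunit gene *SPC1*, the C/D box snoRNA snR77, *YGR079W*, the cAMP phosphodiesterase gene *PDE2* and the secretion gene *MSO1*.

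Ribosomal protein genes were mostly in falling order in experiment 2, with small differences. Of 137, 99 were in falling order and 3 in rising order, compared with 25.6% and 18.2% of all genes tested. Their median log2 ratio was −0.11 for 0.05 over 0 nM and −0.18 for 0.25 over 0 nM, beside −0.04 and −0.03 for all genes. None was called in the limma fit at either dose. At 0.25 nM, 27 were lower and 1 higher at an unadjusted p under 0.05, beside 5.82% and 3.69% of all genes tested. The 0.25 nM library was the lowest of the 4 for 44 and the highest for 8, beside 26.8% and 16.8% of all genes tested. The 0 nM library of experiment 1 had the lowest share of reads on these genes (10.9%).

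Small RNAs differed between 0 and 0.25 nM in a direction that went with their length. Of 86 small nuclear, nucleolar and other stable RNAs, the 31 of 150 to under 300 bases had a median log2 ratio of 0.82 for 0.25 over 0 nM in experiment 2, with 28 higher. For the 41 under 150 bases the median was −0.50 with 5 higher, and for the 14 of 300 bases and over it was −0.10 with 6 higher. Of all 5995 genes tested, 2645 were higher in this comparison. In the limma fit at 0.25 nM, 22 of the 31 RNAs of 150 to under 300 bases were higher and 0 lower at an unadjusted p under 0.05. Among all genes tested, 3.69% were higher and 5.82% lower at that level. Of the 31, 9 had an adjusted p under 0.1 and 1, snR4, was called. Both annotated forms of the U5 RNA, which share reads, are among the 31. None of the 41 shorter ones was higher at an unadjusted p under 0.05, and 4 were lower.

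The split by length was found within 1 class of snoRNA as well. Of the C/D box snoRNAs, 5 of 5 with 150 to under 300 bases were higher at 0.25 nM than at 0 nM in experiment 2, and 5 of 40 under 150 bases. snR4, with 186 bases, and snR190, with 190 bases, belong to the first set, and snR47, with 99 bases, to the second. H/ACA snoRNAs of 150 to under 300 bases were higher in 20 of 23 cases. Among them snR49 had 1312 RPKM at 0.25 nM, against 408 RPKM at 0 nM, and snR189 had 1032 RPKM, against 345 RPKM. At 0.05 nM the 31 RNAs had a median log2 ratio of 0.02 and the 41 shorter ones one of −0.41.

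Beyond these 3 libraries, the 31 RNAs of 150 to under 300 bases had a median log2 ratio of 0.61 for 1 over 0 nM in experiment 1 with 26 higher, and of 0.46 in experiment 2 with 24 higher. At 5 nM in experiment 1 the median was −0.09 with 7 higher. Of all genes tested, 56.3% were higher at 1 nM than at 0 nM in experiment 1. Protein-coding genes also differed by length, but in another shape, and only 55 of 205 under 300 bases were higher at 0.25 nM. Their median log2 ratio of 0.25 over 0 nM was −0.21 for 205 genes under 300 bases, −0.11 for 1925 genes of 300 to under 1000 bases and 0.01 for 3414 genes of 1000 bases and over. How far recovery of RNAs by size differed between libraries was not tested, and with 1 library at 0.25 nM the dose and the library cannot be told apart.

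**Figure D4:**
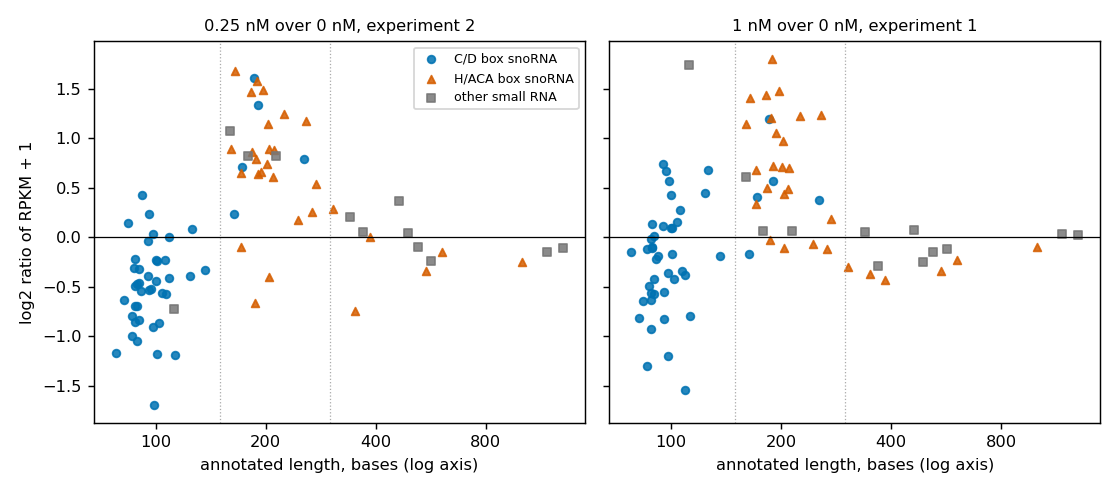
Log2 ratio of (RPKM + 1) against annotated length (log axis) for 86 small RNAs, 1 point per RNA by class, for 0.25 over 0 nM in experiment 2 (left) and 1 over 0 nM in experiment 1 (right), with dotted lines at 150 and 300 bases. On the left 28 of 31 RNAs between the lines lie above 0 and 5 of 41 RNAs under 150 bases do, and on the right 26 of 31 lie above 0.

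At the other end of the range, few genes that reads could reach were silent. Of 6007 protein-coding genes, 281 (4.68%) had fewer than 3 reads in each of the 4 libraries, 193 had 0 reads in all 4 and 157 had 0 reads in all 18. The 19 mitochondrial genes were all among them, with 0 reads in all 18 libraries. Whether reads on them were mapped and counted is not given in the sources used here, so these zeros do not show silence. Of 171 nuclear genes for which under 10% of 50-base windows are unique in the R64 genome, 125 (73.1%) were silent in this sense, compared with 37 of 203 (18.2%) for 10 to 90% unique and 100 of 5614 (1.78%) for at least 90% unique. How reads with several map positions were handled is not given in the sources used here, so silence of such genes cannot be told apart from loss of their reads. Among the genes at least 90% unique, 14 of 107 (13.1%) within 20 kb of a chromosome end were silent, and 86 of 5507 (1.56%) further in. Of these 14, 9 form a single block at one end of chromosome XV with no read in any of the 18 libraries, and without that block, left out after its values were seen, 5 of 98 (5.10%) were silent.

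**Figure D5:**
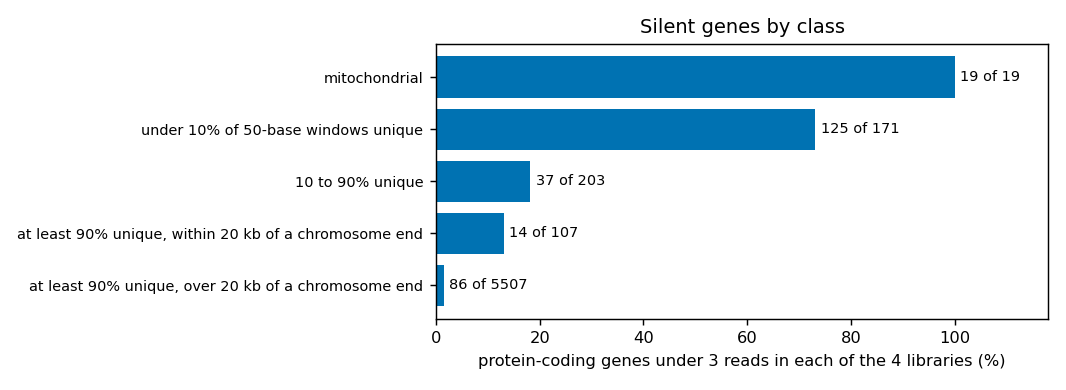
Percent of protein-coding genes with fewer than 3 reads in each of the 4 libraries, with 1 bar per class of gene and the counts beside it. The share is 73.1% for genes with few unique windows, 13.1% for unique genes within 20 kb of a chromosome end (5.10% without the block of 9 genes on chromosome XV) and 1.56% for unique genes further in.

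The 100 unique silent genes were short, with a median length of 316.5 bases against 1203 bases for all protein-coding genes, and 86 were under 600 bases, for which 3 reads correspond to a higher level. Only 26 carry a gene name, and 5 of the 100 are in the list of genes deleted or mutated in the strain. Others with names include *DAN1*, a cell wall gene of anaerobic growth, and the meiotic genes *MEI5* and *MER1*. Neighbouring genes were at 0 together in all 18 libraries in 2 places. On chromosome IX, *YIL163C*, *SUC2* and *SMU2* (chrIX:36899-40140) had no read, where the strain background carries *suc2Δ9*. On chromosome XV, 9 genes from *YOL166W-A* to *ENB1*, the enterobactin transporter gene (chrXV:585-21311), had no read at any dose. None of the 281 genes reached 10 reads in each of the 7 libraries at 20 nM and above.

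Programmes that glucose-grown haploids keep off were low rather than absent. The 25 genes of meiosis and sporulation had a median of 1.53 RPKM. *IME1*, the inducer of meiosis, had 1.92 and 0.939 RPKM at 0 nM in experiments 1 and 2, 0.453 RPKM at 0.05 nM and 1.14 RPKM at 0.25 nM. The highest were *RED1*, of the meiotic chromosome axis, with 24.7 RPKM, and *SPS1*, *REC104*, *ZIP1* and *SPS4* between 6.44 and 7.28 RPKM. The 23 glucose-repressed genes had a median of 2.66 RPKM, led by the malate dehydrogenase gene *MDH2* with 26.4 RPKM and the isocitrate lyase gene *ICL1* with 10.5 RPKM, followed by *GAL3*, *CTA1* and *GAL10* between 5.10 and 7.61 RPKM. In both lists together, *SUC2* alone was at 0 in all 4 libraries.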

How the data were processed

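RNA of strain yAA95 was sequenced by the study in 18 libraries, of which the 4 at 0, 0.05 and 0.25 nM are described here. Groups were taken from the sample labels, and the dose labelled 0.05 nm was taken as nM. The authors depleted ribosomal RNA, mapped directional reads and deposited RPKM values per gene, scaled by the mapped reads of each library. The submitters' processing notes name Bowtie 0.12.2 and sacCer3, the genome of R64, whereas the paper names Bowtie 2, so the aligner is not settled. How reads mapping to several places were treated is not given in the sources used here.

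Each table has 7336 entries with 7126 gene names, of which 151 recur and were kept once. 6048 names matched R64 systematic names and 114 non-coding RNAs were matched by symbol. Multiplied by gene length and library total, 99.3% to 99.8% of values of up to 100 reads came out whole (tolerance 0.02 reads), which gave the mapped reads. Genes averaging at least 1 RPKM over 18 libraries entered a limma fit (version 3.58.1, R 4.3.3, eBayes with trend) on log2(RPKM + 1), with dose as a factor, experiment as a block, 6 residual degrees of freedom and Benjamini-Hochberg adjustment. On this scale the pseudocount shrinks differences of low genes. limma-voom on recovered reads tested 5643 genes. Other steps used Python 3.11.15, numpy 2.4.6 and pandas 2.3.3. The fit was tested on simulated reads. Intervals of 2 counting standard errors treat reads as independent and cover counting error only.

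The replicate number marks the experiment, and both experiments include a mock-treated culture. Differences between experiments at a dose correlated with those at other doses (mean 0.354, range 0.178 to 0.466 over 21 pairs of doses). p-values measure the spread between libraries of the 7 doses with 2 libraries.

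Genes named are the 25 highest, the members of the mating and strain lists, up to 10 called genes per direction, the 10 steepest rising and falling genes with both steps over 2 counting standard errors, the 5 highest genes of lists of silent programmes and those at 0. Other genes named were chosen after their values were seen. The members and lists were chosen with earlier results of these data known. Alternatives were other pseudocounts, filters, scalings, no block, fewer doses, left-out libraries and limma-voom. Centring and quantile normalization of the 1 nM check, and leaving out a library in the count of effectors highest at 0.25 nM, were added after seeing the data.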

Additional observations from a re-analysis of the deposited data

Results flagged for a closer look

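Among 88 genes named in the text, each with 4 libraries, the highest or lowest library was examined for a gap to its neighbour past Dixon's critical share of the range. Chance passes about 1 in 20, or 4.4 of 88, and 4 genes did so. snR37, an H/ACA snoRNA, had 15084 RPKM at 0.05 nM, against 12701 to 13006 RPKM in the libraries at 0 and 0.25 nM. *GPM1* had 4951 RPKM at 0 nM in experiment 1, with the 3 libraries of experiment 2 between 6059 and 6238 RPKM. *STE4* had 99.6 RPKM at 0 nM in experiment 1, with experiment 2 between 95.1 and 95.5 RPKM, a gap that is small against its level. *PRM2*, a pheromone-regulated membrane protein gene, had 1.504 RPKM at 0 nM in experiment 2, with the others between 2.68 and 2.87 RPKM.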

How the results depend on the processing

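Counts of called genes depended on how the spread was estimated. At 0.25 nM, the count of higher genes was 3 without a filter, 3 with libraries up to 5 nM alone and 8 with limma-voom, and 4 to 10 when a 0 nM library was left out. The count of lower genes was 1 with a pseudocount of 0.1 (*YPL278C*) and 0 to 2 with a library left out. At 0.05 nM, 0 to 8 genes were higher with a library left out. At 1 nM, the 16 higher and 2 lower genes became 8 and 1 with a pseudocount of 5, 5 and 1 without a filter, and 4 and 0 with libraries up to 5 nM alone. limma-voom called 7 higher, and leaving out a 0 nM library gave 5 to 34 higher and 0 to 17 lower.

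Without the replicate block, which the pairing of libraries by experiment supplies, 0 genes were called at 0.25 nM and snR4 had an adjusted p of 0.191 (limma, log2 fold change 1.72). At 1 nM 1 gene was then higher (*AGA2*) and 0 lower. The counts at 0.05 nM and of lower genes at 0.25 nM were 0 without it too.

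With a filter at 5 RPKM, 54 genes were rising and 92 falling with a span of at least 1.5-fold. Quantile normalization left 68 falling genes with both steps over 2 counting standard errors. Under 10 reads in each library, 449 genes were silent. Left-out libraries gave 285 to 304 silent genes and kept 24 or 25 of the 25 highest. Of the values recomputed for the comparisons, 91 stayed within 1.5 times or the replicate spread and 26 did not. This rule compares sizes and could not mark a reversal. The larger of the rising and falling counts did change sides with the scaling. The 0.05 and 0.25 nM doses have 1 library each, genes of a few RPKM rest on few reads, and only effects of 2.5-fold or more were simulated.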

Other observations

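Stress and reserve carbohydrate genes, a list chosen with earlier results of these data known, were mostly highest at 0.25 nM. The 0.25 nM library was the highest of the 4 for 12 of 15 genes, compared with 16.8% of all genes tested, and the lowest for 0. Their median log2 ratio of 0.25 over 0 nM in experiment 2 was 0.19, beside −0.03 for all genes, and 7 were in rising order. None was called in the limma fit. At an unadjusted p under 0.05, 4 were higher and 0 lower, beside 3.69% and 5.82% of all genes tested. *PGM2*, a phosphoglucomutase, had 43.1 RPKM at 0.25 nM and 29.3 RPKM at 0.05 nM, against 31.7 and 30.4 RPKM at 0 nM in experiments 1 and 2. *GPH1*, glycogen phosphorylase, had 35.6 RPKM at 0.25 nM and 27.9 RPKM at 0.05 nM, against 24.6 and 25.5 RPKM at 0 nM. The cytosolic catalase gene *CTT1* had 21.3 RPKM at 0.25 nM and 12.5 RPKM at 0.05 nM, against 11.8 and 12.8 RPKM at 0 nM. In these 3 genes the 0.25 nM library stood above the other 3, which lay close together. *HSP12*, a membrane stress protein and the most abundant of the list, was lower at 0.25 nM (446 RPKM) than in either other library of experiment 2 (538 RPKM at 0 nM and 578 RPKM at 0.05 nM).

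Glycolytic genes were highest at 0.25 nM for 11 of 16 and histone genes for 0 of 10, compared with 16.8% of all genes tested. With 10 histone genes, a count of 0 is not far from that share. G1 and S phase genes differed more between experiments than between doses. The cyclin gene *CLN3* had 25.0 RPKM at 0 nM in experiment 1, and 10.4, 12.3 and 10.2 RPKM at 0, 0.05 and 0.25 nM in experiment 2. *SVS1*, of the cell wall, had 69.4 RPKM at 0 nM in experiment 1 and 32.8, 41.2 and 39.3 RPKM in that order in experiment 2. Of 299 tRNA names, 89 were listed at 0 in the 4 libraries, as were 111 of 679 names that matched no R64 entry.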
